A study of Homo sapiens with 4 samples.

Results

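The replication-dependent histone genes were taken as the protein-coding genes with the symbols H1-1 to H1-6 or a symbol beginning with H2AC, H2BC, H3C or H4C. The rule found 70 genes among the 19970 protein-coding genes of chromosomes 1 to 22 and X. It took 6 linker histone genes (H1), 17 H2A genes, 19 H2B genes, 13 H3 genes and 15 H4 genes. Chromosome 6 held 55 of them in 3 groups, and chromosome 1 held 13 in 2 groups. H4C16 lay alone on chromosome 12 and H2BC12L alone on chromosome 21.

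These genes encode the linker histone and the core histones that package new DNA, and they are transcribed mainly in S phase. They are short, lack introns for the most part, and give mRNAs that end in a stem-loop in place of a poly(A) tail. NPAT and CASP8AP2 (FLASH) gather at the clusters in histone locus bodies and promote their transcription, and SLBP and the U7 small nuclear ribonucleoprotein form the mRNA 3′ end.

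RNA polymerase II (Pol II) was profiled by chromatin immunoprecipitation and sequencing (ChIP-seq) in U2OS, a human osteosarcoma line that the labels call epithelial. The control library came from cells given a control siRNA (NC) and the knockdown library from cells given an siRNA against NKAP, a nuclear RNA-binding protein, both for 48 h. Both groups thus carried a transfected siRNA in the same line, and each held 1 ChIP library, so no difference below has replicates behind it and the conditions were not tested against each other. The peak lists of these libraries were compared, and the 2 input libraries that the labels also list were not analysed here.

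The control list held 36345 peaks on these chromosomes and the knockdown list 26387. At the summit, the highest point of a peak, the median number of reads was 18 and 19. Depth was estimated for the knockdown library at 0.857 times that of the control. Of 12 osteoblast and mesenchymal marker genes, 7 had a control peak and 6 a knockdown peak within 1000 bp of a gene end, with RUNX2, COL1A2, ALPL, IBSP and TWIST1 without a peak in either and CDH11 with a control peak only (17 reads, fold 8.41). In both lists the counts were 0 of 8 lymphocyte markers, 1 of 8 hepatocyte markers (TAT) and 1 of 7 keratinocyte markers (KRT10). Over all protein-coding genes the shares with such a peak were 59.9% in the control and 56.5% in the knockdown list. The osteoblast and mesenchymal counts were thus no higher than those shares and do not mark the lineage.

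The promoters of the genes were compared first, since sequence sets them apart and since near-identical copies can share reads. RefSeq's promoter table for GRCh38.p14, the build of the peaks, held 64 of the 70 genes. Across the 250 bases before the start, 4 motifs were searched on both strands. CCAAT, the box bound by NF-Y, stood in 54 of the 64 promoters (84.4%) against 32% of all 35116 promoters of the table. TATAAA, the TATA box, stood in 42 (65.6%) against 10.7%. ATTTGCAT, the octamer read by POU2F1 (OCT1), stood in 26 (40.6%) against 1.63%. AAACACA, the AC box of linker histone promoters, stood in 6 (9.38%) against 4.82%. No motif here contains another. Neighbouring genes that point away from each other can share much of the bases searched. The same copy of a motif can then be counted for both genes, and such sharing was not removed from these counts.

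The motifs divided by family. The octamer stood in 14 of 18 H2B promoters and 11 of 16 H2A promoters, in 0 of 13 H4 and 0 of 6 H1 promoters, and in 1 of 11 H3 promoters. That H3 entry, of H3C4, begins at the same base as H2AC7 and so shows the promoter of H2AC7. The H2A and H2B counts also share sites. Most octamers counted for H2A genes are the same site as the one counted for an H2B neighbour. This holds for H2AC1 with H2BC1, H2AC6 with H2BC4, H2AC7 with H2BC7 and H2AC8 with H2BC8. It also holds for H2AC11 with H2BC11, H2AC14 with H2BC14, H2AC17 with H2BC17 and H2AC20 with H2BC21. Only H2AC4, H2AC16 and H2AC21 held an octamer not also counted for an H2B gene. The H2A and H2B counts are thus not independent. The AC box stood in all 6 H1 promoters and in no other promoter of the 64. CCAAT stood in every H1, H2A, H2B and H3 promoter of the table and in 3 of the 13 H4 promoters.

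H1-4 and H1-3 are printed as linker histone genes with a strong peak in both lists and with no peak in either. The last 150 bases before each start are given, 5′ to 3′ on the strand of the gene, with the motifs in capitals:
H1-4 (chr6:26156179-26156328, plus strand): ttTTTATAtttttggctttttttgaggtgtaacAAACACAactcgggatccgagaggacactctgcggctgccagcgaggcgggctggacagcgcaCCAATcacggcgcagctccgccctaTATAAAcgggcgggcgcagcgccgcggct
H1-3 (chr6:26234988-26235137, minus strand): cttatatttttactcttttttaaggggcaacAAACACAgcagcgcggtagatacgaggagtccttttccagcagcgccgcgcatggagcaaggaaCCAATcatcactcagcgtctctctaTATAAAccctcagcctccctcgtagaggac
The box that marks H1 genes, a CCAAT box and a TATA box stood in the same order in both.

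H2BC7 and H2AC8 each start a divergent H2A and H2B pair, H2BC7 with H2AC7 under a wide peak and H2AC8 with H2BC8 in a stretch with no peak. The 250 bases before each start are given, with the motifs of either strand in capitals:
H2BC7 (chr6:26199266-26199515, plus strand): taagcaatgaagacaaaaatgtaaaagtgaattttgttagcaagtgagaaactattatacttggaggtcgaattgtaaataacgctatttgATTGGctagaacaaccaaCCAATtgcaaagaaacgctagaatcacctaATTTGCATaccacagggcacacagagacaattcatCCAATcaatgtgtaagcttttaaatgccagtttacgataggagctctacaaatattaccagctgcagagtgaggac
H2AC8 (chr6:26216671-26216920, plus strand): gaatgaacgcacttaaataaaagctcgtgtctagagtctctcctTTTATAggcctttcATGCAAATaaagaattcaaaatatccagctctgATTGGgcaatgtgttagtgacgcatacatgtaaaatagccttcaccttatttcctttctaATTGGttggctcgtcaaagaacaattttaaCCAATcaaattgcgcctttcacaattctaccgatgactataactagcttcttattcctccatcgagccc
Both held the octamer and several CCAAT boxes. The octamer lay on the opposite strand in the H2AC8 promoter and is seen there as its reverse complement.

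H4C14 and H4C15 lie on chromosome 1 under the peaks of highest control fold enrichment described below, and their promoters were identical over all 250 bases. Neither held any of the motifs:
H4C14 (chr1:149832507-149832656, plus strand): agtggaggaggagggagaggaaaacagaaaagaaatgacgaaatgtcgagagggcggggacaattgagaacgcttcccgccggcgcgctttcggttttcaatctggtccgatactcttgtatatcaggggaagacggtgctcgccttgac
H4C15 (chr1:149861160-149861309, minus strand): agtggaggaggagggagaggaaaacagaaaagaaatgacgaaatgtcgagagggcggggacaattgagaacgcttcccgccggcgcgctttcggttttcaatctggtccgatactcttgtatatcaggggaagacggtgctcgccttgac
H2AC18 and H2AC19 were 99.6% identical over the same window, H3C14 and H3C15 98.4% and H4C11 and H4C12 98.0%. In each of these pairs both genes carried peaks. The median identity between promoters of a family ran from 45.6% (H3) to 53.2% (H1), so such copies were the exception. How reads that match several copies were placed is not given in the sources used here, and the values of these copies cannot be told apart with certainty.

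A gene was counted as a carrier when a peak lay within 5000 bp of its span. In the control list 47 of the 70 histone genes were carriers (70.1% of all protein-coding genes were), and in the knockdown list 47 were (66.5% of all genes). They were the same 47 genes, 67.1% of the 70 (Wilson 95% interval 55.5% to 77.0%), against 64.7% of all genes with a peak in both lists. No histone gene carried a peak in the control list only (5.34% of all genes did) or in the knockdown list only (1.74%). The other 23 had a peak in neither list (28.2% of all genes). The share of carriers was thus near that of all genes. Histone genes are short, and among protein-coding genes of under 3000 bp only 35.6% had a peak in both lists. Of the 64 histone genes of that length 42 did (65.6%, interval 53.4% to 76.1%). Both intervals treat genes as independent and are too narrow, since 32 of 42 touched genes shared their strongest control peak with another histone gene. A packed gene can also count through a neighbour's peak within 5000 bp.

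A peak touched the gene itself in both lists for 42 of the 70 histone genes, against 59.6% of all protein-coding genes. The share was thus near that of all genes. The other 5 of the 47 carriers had a peak only beside them. H1-6, the testis linker histone gene, lay 2330 bp from the control peak on H4C3. H4C4 lay 4594 bp from a weak peak of 15 reads in the control and 9 in the knockdown list. H3C12, H2AC17 and H2BC17, at the far edge of the third chromosome 6 group, lay near a control peak of 15 reads and a knockdown peak of 13 reads that did not overlap each other. H2BC18 was touched by a peak of 14 and 17 reads, 19336 bp from its start inside its long annotated span, so Pol II at its promoter was not seen in either list. That peak also lay within 1000 bp of the spans of FCGR1A and LOC124904411.

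The genes fell into stretches with and without Pol II peaks. The first chromosome 6 group, from 25726063 to 26285534, had 19 carriers of 34 genes. The second, from 27132316 to 27147562, had 5 of 5, and the third, from 27807479 to 27893891, had 12 of 16. On chromosome 1 the group from 149782689 to 149887965 had 10 of 11, and the pair H2AC25 and H2BC26, from 228457364 to 228458558, had 0 of 2. H4C16 on chromosome 12 carried a peak in both lists and H2BC12L on chromosome 21 in neither. By family, 4 of 6 H1 genes, 13 of 17 H2A, 11 of 19 H2B, 7 of 13 H3 and 12 of 15 H4 genes were carriers.

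**Figure D1:**
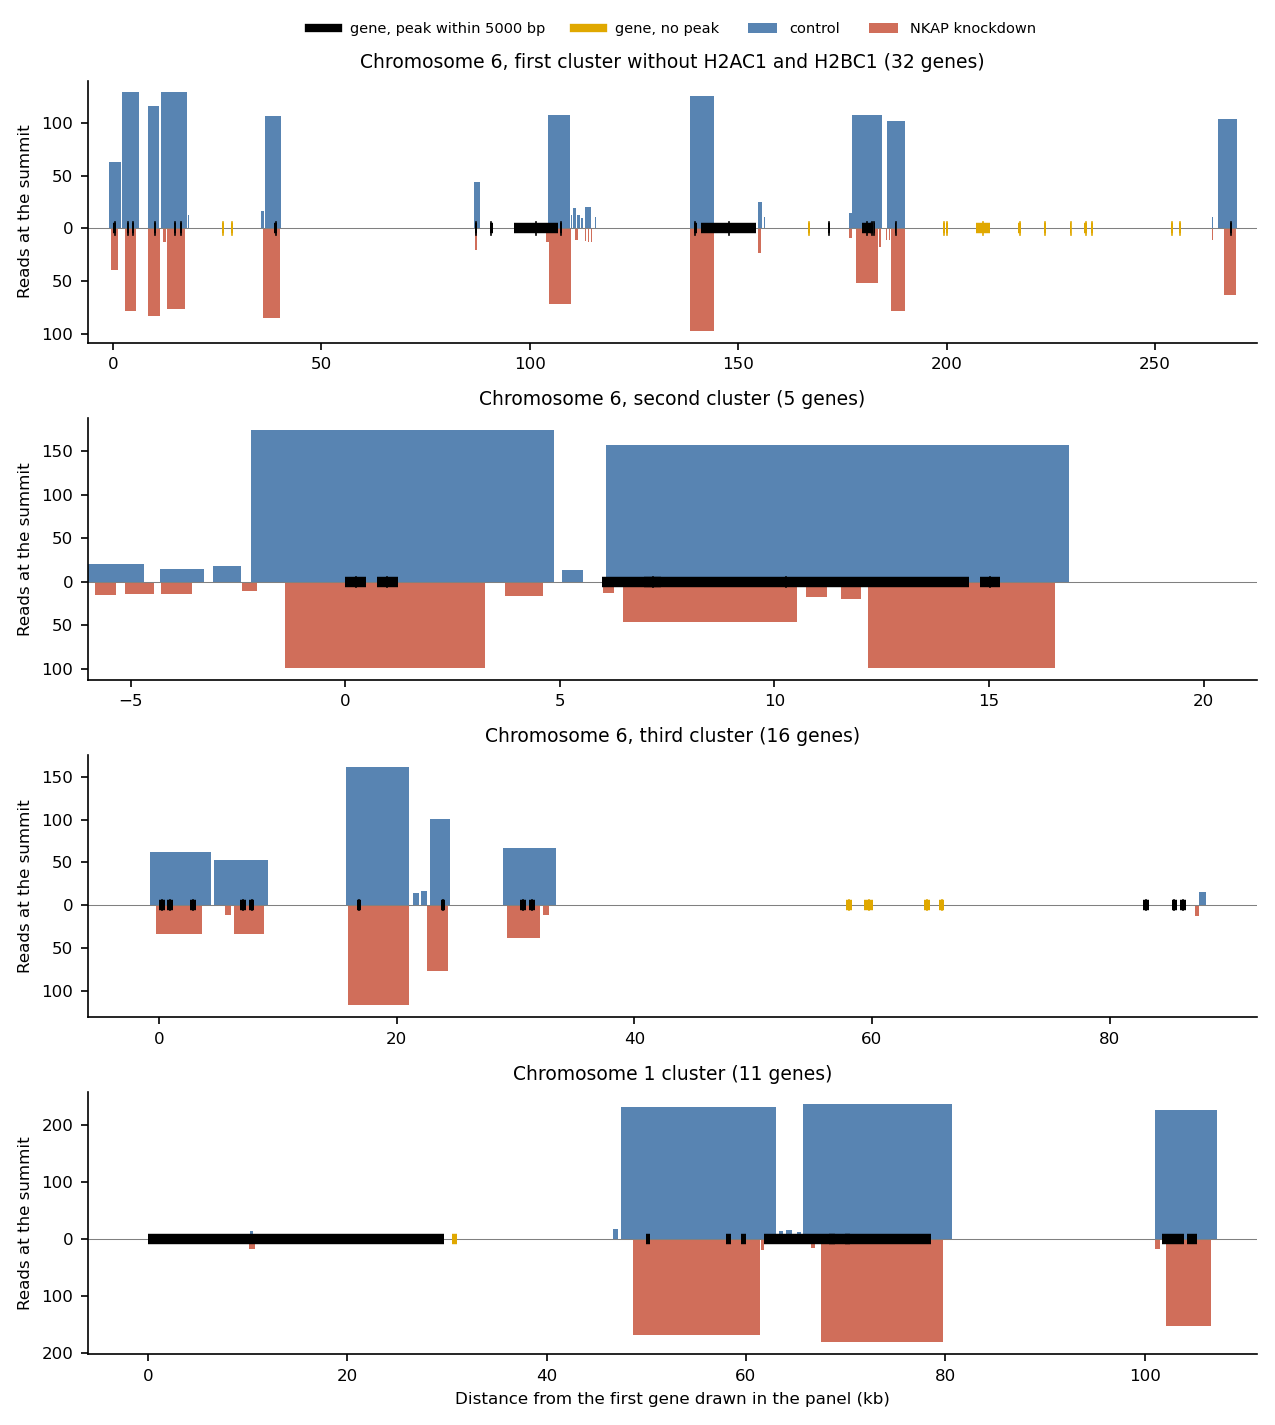
Peaks over the 4 larger groups of histone genes. Each bar spans a peak along the x axis (kb from the first gene drawn) and its height is the number of reads at the summit, control upward in blue and knockdown downward in red; genes are marked on the midline in black where a peak lies within 5000 bp and in yellow where none does. H2AC1 and H2BC1 lie far from the rest of the first group and are not drawn. The yellow genes sit together in stretches empty in both directions, the longest holding 10 genes.

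The genes without a peak lay together. The longest run held 10 neighbours, H2BC8, H2AC8, H3C6, H1-3, H4C6, H4C7, H3C7, H2BC9, H3C8 and H2BC10, from 26216200 to 26273412 on chromosome 6. No peak fell in the 73.5 kb around it in the control list or in the 73.7 kb around it in the knockdown list. H4C5 on its left edge and H4C8 on its right had 102 and 104 control reads at their summits. A second run held H2AC16, H1-5, H3C11 and H4C13 (27865317 to 27873534), in 54.1 kb and 54.3 kb with no peak. H2BC3 with H3C3, and H2BC6, stood between carriers of the first group, in gaps of 17.3 and 20.3 kb in the control list. In the larger chromosome 1 group H3C13 was the lone gene without a peak, 15701 bp from the nearest.

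H2AC1 and H2BC1, known as the testis H2A and H2B genes, lay at the head of the first group, 235029 bp or more from any peak of either list. Together with H2BC8 and H2AC8, H2AC25 and H2BC26, and H3C7 and H2BC9, they made up the 4 divergent pairs without Pol II peaks among the genes with a listed start. Among the 64 genes with a listed start and strand, 12 pairs of neighbours pointed away from each other with starts within 1000 bp, 11 of them an H2A and an H2B gene, and the median distance between starts was 238 bp. Both genes were carriers in 8 pairs, neither was in 4, and in none did the state differ. The windows that define a carrier largely overlap for genes this close. Agreement within the pairs was thus nearly set by the definition and shows nothing particular to divergent genes. In 7 of the 8 a single peak covered both genes in each list; the exception was H2AC17 with H2BC17. A shared peak does not tell which of its genes Pol II transcribes.

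Each motif stood both in carriers and in genes with no peak. CCAAT stood in 34 of 43 carrier promoters and in 20 of 21 promoters of genes with no peak. The TATA box stood in 30 of 43 and 12 of 21, the octamer in 17 of 43 and 9 of 21, and the AC box in 4 of 43 and 2 of 21. Median GC content was 44% in carriers (range 36.4% to 60.8%) and 39.2% in the rest (34.4% to 49.6%), with 58% over all promoters. These are descriptions of neighbouring genes, which are not independent.

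Peaks near the histone genes were wide and strong for their lists. The control list had 45 peaks within 5000 bp of a histone gene, of which 21 were among the strongest 10% of the list by p-value, and the knockdown list had 47, of which 20 were. In the control list 20 of the 45 were wider than 2500 bp, against 7.52% of all control peaks. In the knockdown list 19 of the 47 were, against 3.67%. A peak often held several genes. The 42 genes that a peak touched lay under 23 strongest peaks in the control and 24 in the knockdown list, and 32 and 31 of them shared theirs with another histone gene.

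The widest peaks lay on chromosome 1. A control peak of 15609 bp, from 149830133 to 149845741, covered H4C14, H3C14 and H2AC18 and reached into the annotated span of H4C15. A control peak of 14919 bp, from 149848456 to 149863374, covered H2AC19, H3C15 and the start of H4C15. In the knockdown list these peaks were 12715 and 12184 bp wide. Their control fold enrichments, as the authors' peak caller gave them, were 96.1 and 91.7 and ranked 1 and 2 of the whole control list. In the knockdown list the same peaks had folds of 48.2 and 51.9 and ranked 32 and 24.

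Both the reads and the background entered that difference in fold. The fold divides the reads at the summit, scaled in the knockdown list by 0.926, by the background that the caller estimated there, each with 1 added. At H3C14 the summit had 231 control reads (exact Poisson 95% interval 202 to 263) and 168 knockdown reads (144 to 195), while the background was 1.41 reads in the control and 2.25 in the knockdown list. At H3C15 and H4C15 it had 237 control reads (208 to 269) and 181 knockdown reads (156 to 209), with backgrounds of 1.60 and 2.25. The control summit lay in H3C15 and the knockdown summit 8285 bp away near the start of H4C15. These intervals, like all below, cover counting error only, and sequenced reads without molecular identifiers are not independent molecules.

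At other peaks fold and reads went in opposite directions. H1-4, with H2BC5 at its edge, had a control fold of 31.9 and a knockdown fold of 48.0, although its summit had 126 reads in the control and 97 in the knockdown list. The background there was 2.99 reads and 0.89 reads. H4C16 had folds of 24.3 and 29.7 with 96 and 65 reads, over backgrounds of 2.99 and 1.06. Reads at the summit were therefore set side by side in what follows, not scaled for depth, for the 30 pairs of a control and a knockdown peak near histone genes. In each pair the peaks were the strongest that the other overlapped.

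Linker histone genes with peaks had fewer summit reads in the knockdown library in all 3 pairs that lay on them. H1-1 had 63 control and 39 knockdown reads, H1-2 had 107 and 85, and H1-4 the 126 and 97 given above. The control and knockdown intervals overlapped for each of these genes, for example 87.7 to 129 and 67.9 to 105 at H1-2.

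The pairs of H2A and H2B genes also had fewer knockdown reads. H2BC11 and H2AC11 had 175 control reads (150 to 203) and 99 knockdown reads (80.5 to 121). H2BC21 with H2AC20 and H2AC21 had 227 (198 to 259) and 152 (129 to 178), with folds of 74.7 and 47.2. For these peaks the intervals did not overlap. H2BC4 and H2AC6 had 108 and 72 reads, H2AC14 and H2BC14 had 53 and 34, and H2AC15 and H2BC15 had 67 and 38. H2BC13 and H2AC13, with H3C10 under the same peak, had 62 and 34.

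H2BC12, H4C9 and H2AC12 lay under a wide control peak that met several knockdown peaks. A control peak of 10790 bp, from 27138400 to 27149189, overlapped 5 knockdown peaks that together covered 9555 bp of it. The control summit at H2BC12 and H2AC12 had 157 reads (133 to 184) and the knockdown summit there 99 (80.5 to 121). H4C9, at the other end of the control peak, lay under a knockdown peak of its own with 46 reads. In all, 12 of the 45 control peaks near histone genes were overlapped by more than 1 knockdown peak. The same share over all control peaks, or over those of like width, is not given here. Of the 45, 20 were wider than 2500 bp, against 7.52% of all control peaks, and the lists differ in depth and were called separately. The splitting is thus not shown to be particular to histone genes.

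H3 genes shared their peaks with neighbours. H3C1 and H4C1 had 129 control reads (108 to 153) and 78 knockdown reads (61.7 to 97.3), and H3C2 and H2AC4 had 129 and 76 (59.9 to 95.1). At both peaks the intervals lay apart. H3C4 is described below.

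H4 genes mostly lay alone under their peaks. H4C2 had 116 control and 83 knockdown reads, H4C5 had 102 and 78, H4C8 had 104 and 63, H4C11 had 162 and 117, H4C12 had 101 and 77, and H4C16 the 96 and 65 given above. Each had fewer knockdown reads. The intervals overlapped for H4C2, H4C5, H4C11, H4C12 and H4C16, and lay apart for H4C8 (85 to 126 and 48.4 to 80.6).

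**Figure D2:**
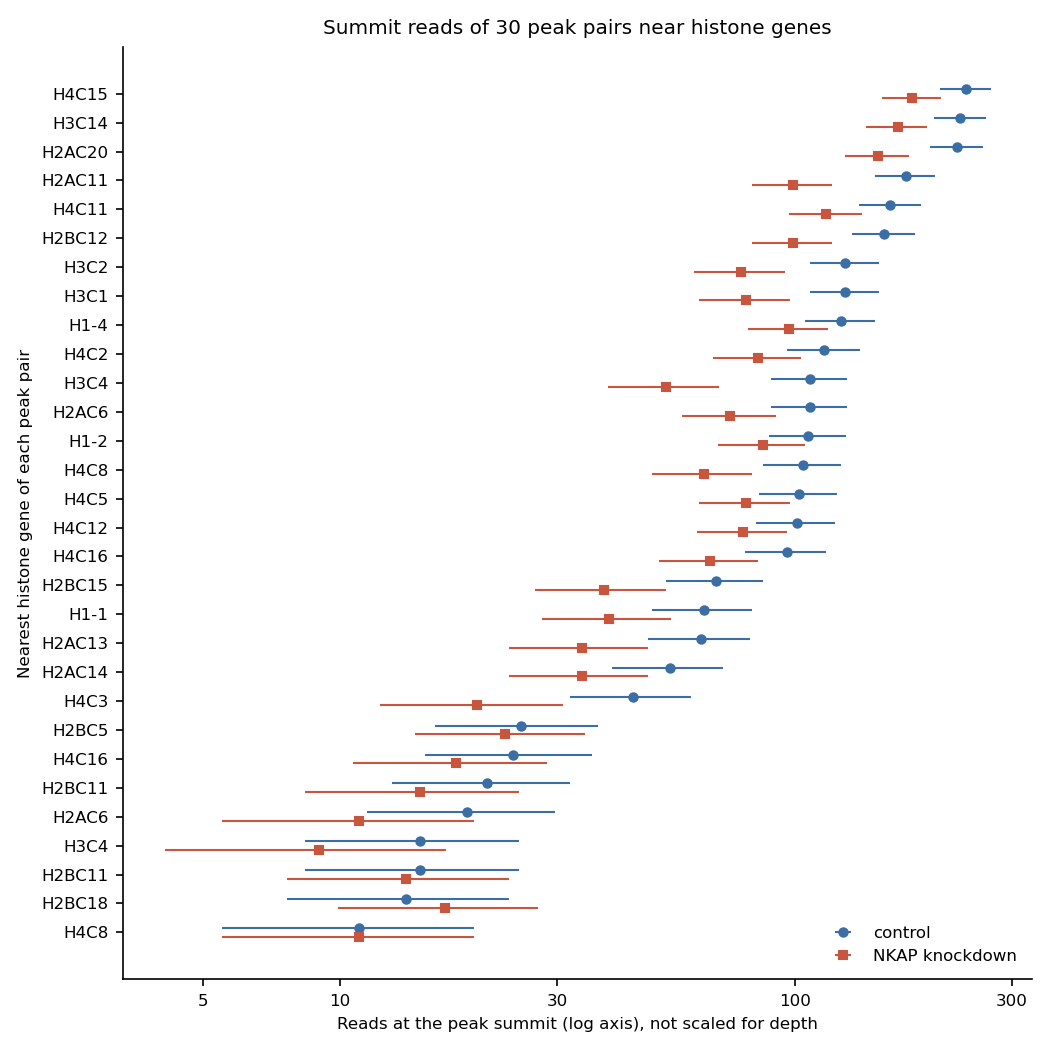
Reads at the summits of the 30 peak pairs, on a log axis, ordered by control reads from 237 at the top to 11 at the bottom. Blue circles are the control library, red squares the knockdown library, bars are exact Poisson 95% intervals (counting error only), and each row is named for the nearest histone gene, so that a gene with several peaks appears more than once. The red square lies left of the blue circle in 28 of 30 rows.

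Over the 30 pairs the knockdown summit had fewer reads in 28, the same number in 1 and more in 1. The intervals lay apart in 10 pairs. The median ratio of knockdown to control reads was 0.673 (interval of the median over pairs 0.606 to 0.75, which treats pairs as independent although neighbours are not), and the ratios ran from 0.455 to 1.21. Over all 18756 such pairs of the lists the median was 0.8, with quartiles of 0.673 and 0.962. The members' ratios therefore lay lower than those of all pairs, but so did those of strong peaks in general. With all pairs ranked by control reads and cut into 10 bins of equal size, the median was 1.13 in the lowest bin and 0.712 in the top bin. The 95th percentile of the top bin was 0.962, so fewer knockdown reads were the rule among strong peaks of any gene. How often intervals lay apart over all pairs is not given here. Intervals that lay apart, here and above, thus do not mark the histone peaks as different. The ratios are not scaled for depth, for which the estimate above is 0.857.

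Compared with peaks of like strength the histone peaks stood close to the rest. The 18 histone pairs in the top bin had a median ratio of 0.673 (0.605 to 0.762), against 0.712 for all 1876 pairs of that bin, whose quartiles were 0.628 and 0.798. Of the 30 histone pairs, 20 lay under the median of their own bin. The interval of the ratio left out the median of the bin in 1 pair, that of H3C4.

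**Figure D3:**
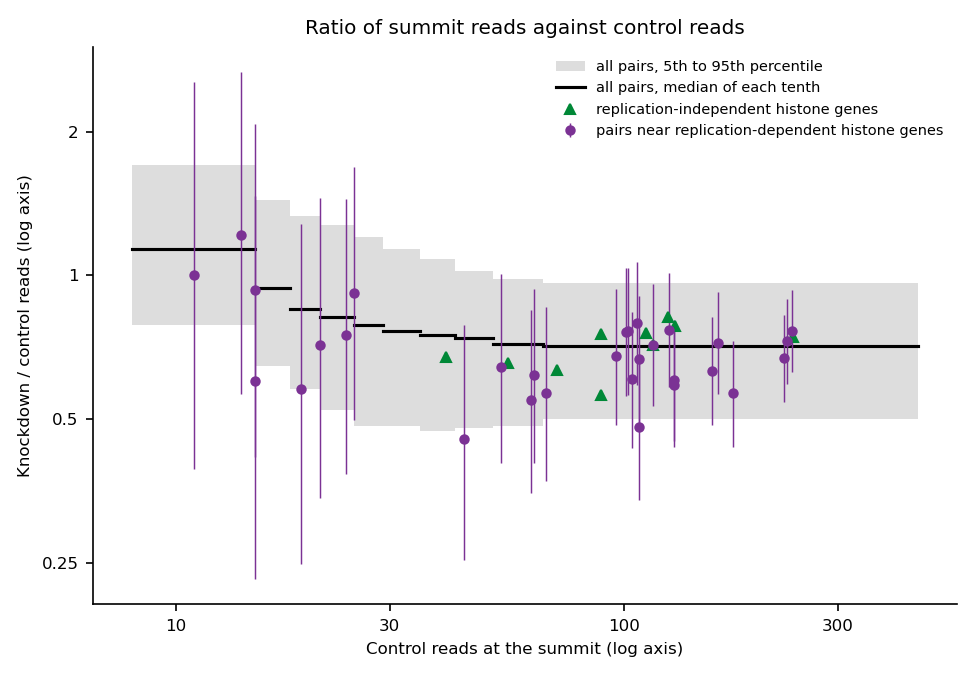
Ratio of knockdown to control reads at the summit against control reads, both on log axes. Black lines are the medians and grey bands the 5th to 95th percentiles of all pairs in each of 10 bins of control reads; purple points are the 30 histone pairs with exact 95% intervals of the ratio, and green triangles are 10 replication-independent histone genes. Most purple points lie inside the grey bands, whose medians go from 1.13 on the left to 0.712 on the right, with H4C3 at 0.455 and H3C4 at 0.481 the lowest.

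A pair was called lower or higher where its ratio lay more than 1.5 times from the median of all pairs, under 0.533 or over 1.2. Of the histone pairs 2 were lower (6.39% of all pairs were) and 1 was higher (8.24%). Of the 18 in the top bin, 1 was lower (7.89% of all pairs there) and none was higher (0.426%). These shares lie near the background.

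The lower pairs were H4C3 and the trio H3C4, H2AC7 and H2BC7. H4C3, at 26103933 to 26104337 on chromosome 6, had 44 control reads (32 to 59.1) and 20 knockdown reads (12.2 to 30.9), a ratio of 0.455 (exact interval 0.254 to 0.788), and its peak was 1387 bp wide in the control and 577 bp in the knockdown list. For the trio, the stretch between the starts of H2AC7 and H2BC7 is printed above. H3C4, H2AC7 and H2BC7 had 108 control reads (88.6 to 130) and 52 knockdown reads (38.8 to 68.2), a ratio of 0.481 (0.339 to 0.676), under a peak of 7194 and 5321 bp. At both sites the control and knockdown intervals lay apart. The higher pair was the peak of 14 and 17 reads inside the span of H2BC18, with a ratio of 1.21 (0.563 to 2.66) that its counts do not separate from 1.

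By the authors' folds in place of the reads, 10 of the 30 pairs would be called lower (16.1% of all pairs by that measure) and 2 higher (15.4%). The median ratio of folds was 0.643 for histone pairs and 0.876 for all pairs. With the background subtracted from the reads, 2 were lower, as with the reads themselves. The fold measure differs from the reads in several terms at once (division by the background, the scaling, the added 1 and the reference median), and which of them moved the count was not tested.

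Where a peak lay on a single histone gene, its position along the gene could be read. Of 39 touched genes with a listed start, the summit lay within 1000 bp of the start in 30 in the control and in 31 in the knockdown list. For the 8 genes alone on a peak at their start (H1-1, H1-2, H4C2, H4C5, H4C8, H4C11, H4C12 and H4C16) the summit lay from -43 to 228 bp of the start in the control list, where a negative value is upstream, and from 36 to 209 bp in the knockdown list. The peaks reached past the end of the gene by 878 to 4040 bp in the control list and by 556 to 4005 bp in the knockdown list. Their reach before the start was shorter, 391 to 1794 bp and 185 to 1069 bp. The reach past the end was the longer in 7 of 8 genes in the control list and 8 of 8 in the knockdown list. H4C11 had the longest downstream reach in both lists, more than its own length several times over.

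**Figure D4:**
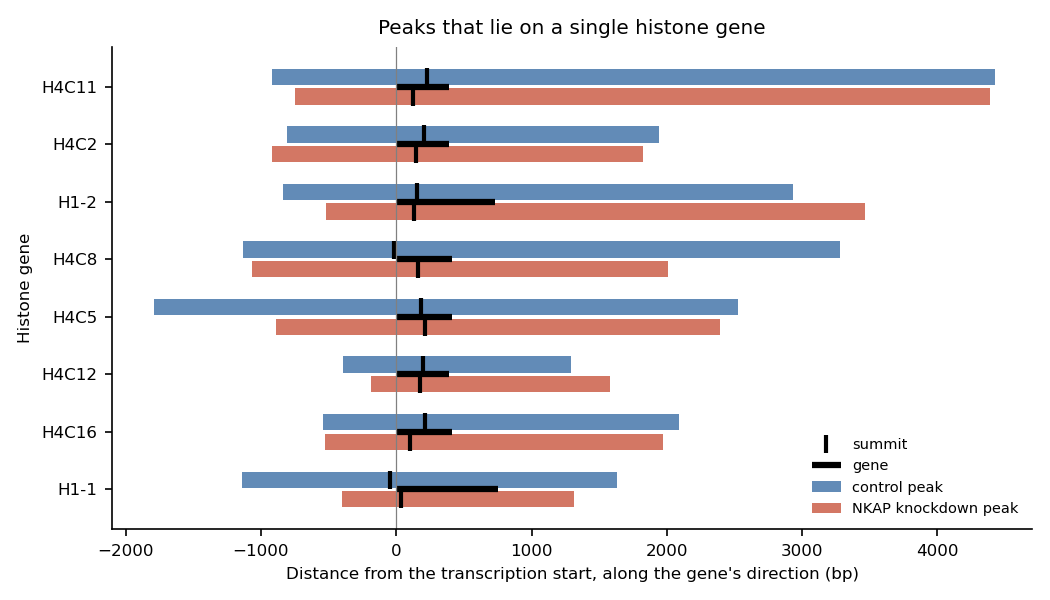
Extent of the peaks that lie on a single histone gene, in bp from the transcription start along the direction of the gene (x axis), for 8 genes ordered by control reads. Blue and red bars are the control and knockdown peaks, black bars the genes and vertical ticks the summits. Summits lie near the start, from -43 to 228 bp, and the peaks run on past the gene end, to 4040 bp beyond it at H4C11.

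Peaks covered 138.624 kb of the 440.386 kb within 5000 bp of the histone genes in the control list (31.5%) and 111.356 kb in the knockdown list (25.3%), a ratio of 0.803. The mean fold of the peaks was 27.9 in the control and 18.4 in the knockdown, against 9.85 and 9.83 over all protein-coding genes and 11.5 and 10.9 over genes of under 3000 bp. Around H4C16 it was 14.3 and 17.1. The ratio was 0.808, 0.826 and 0.761 in the chromosome 6 groups, 0.799 in the larger chromosome 1 group and 0.916 around H4C16. Over all protein-coding genes it was 0.623, and over genes of under 3000 bp 0.684. The ratio around the histone genes thus lay above both, in 2 lists whose peaks were called separately. Peaks near histone genes were often among the strongest and widest, and the ratio was not compared at like strength or width. It is thus not shown to be particular to histone genes.

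Within the pairs the median width was 4108 bp in the control and 2771 bp in the knockdown list, and the median of the width ratios was 0.745, against 0.728 over all pairs. The knockdown peak was narrower in 26 of the 30 pairs. The width ratios of the histone pairs and of all pairs thus lay close together.

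Of the 45 control peaks 33 were overlapped by a knockdown peak (73.3%, interval 59.0% to 84.0%), against 54.2% of all control peaks and 69.3% of those of like strength. Of the 47 knockdown peaks 45 were overlapped by a control peak (95.7%, 85.8% to 98.8%), against 82.8% of all and 85.3% of those of like strength. The 12 control peaks with no partner had 10 to 18 reads and were at most 650 bp wide. Among them were 3 of 12 to 15 reads between the wide chromosome 1 peaks, and the peak of 15 reads beside H2BC17. The 2 knockdown peaks with no partner, near H4C5 and H2BC17, had 11 and 13 reads.

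The genes that regulate histone transcription and mRNA were examined as 3 lists, with a peak within 1000 bp of a gene end as the criterion. All 10 activators had such a peak in the control list (59.9% of all genes did), 9 in the knockdown list (56.5%) and 9 in both (55%). NPAT, the coactivator of the histone locus body, had 44 control and 31 knockdown reads. CASP8AP2, its partner, had 20 control reads at a fold of 9.81 and no knockdown peak, so it was the single activator with a peak in 1 list only. HINFP, which binds H4 promoters, had 29 and 18 reads, and POU2F1, the octamer factor, 64 and 40.

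Of 17 genes of histone pre-mRNA 3′ processing, 16 had a peak in both lists. SLBP, the stem-loop binding protein gene, had 61 control and 39 knockdown reads, and LSM11, of the U7 particle, had 25 and 18. NELFE was the gene without a peak at either end. All 8 genes of histone mRNA decay had a peak in both lists.

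Replication-independent histone genes, which have introns and poly(A) tails and are expressed outside S phase, served as the nearest comparison. Of 12 such genes 11 carried a peak within 1000 bp of an end in both lists (55% of all genes did), the exception being H3-5. Within 5000 bp, the distance used for the replication-dependent genes above, the count was also 11 (64.7% of all genes). H2AJ lies beside H4C16, and the peak at its own end, with 24 control and 18 knockdown reads, is already counted among the 30 pairs near histone genes, so H2AJ was left out of the ratios. For the other 10 the median ratio of summit reads was 0.730, with a range of 0.562 to 0.816. H3-3B had 238 control and 177 knockdown reads, H2AZ1 had 116 and 83, H2AX had 125 and 102, and CENPA had 89 and 50. The ratios of the replication-dependent pairs in the top bin, 0.481 to 0.794, spanned this range except for its upper edge, and no test of a difference could be made with 1 library a group.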

How the data were processed

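Pol II ChIP-seq peak lists of 2 libraries, 1 per siRNA, were analysed in hg38. MACS2 2.1.0, Bowtie 1.1.2, Trimmomatic 0.33 and bcl2fastq 2.17 are named in the submitters' processing notes; the settings and the background library were not given in the sources used here. For every peak the deposited lists gave a score, the fold enrichment of the summit (a ratio), the −log10 of the p-value and q-value, and the summit's place, as the authors' values. Both lists ended at a −log10 q of about 3.0 (3.01 and 3.02), so a gene without a peak can hold Pol II below that threshold.

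Reads and background at each summit were recovered from fold and p, which the caller forms from (pileup + 1)/(background + 1) and a Poisson distribution. A whole number of reads within a relative tolerance of 5e-05 came out for 100% of control and 99.8% of knockdown peaks, with knockdown pileups scaled by 0.926; the recovery was tested on simulated data. The lists ranged from 8 reads at a summit to 457 (control) and 443 (knockdown). Peaks overlapped when they shared at least 1 bp. Genes 500 kb or less apart formed a group. Genes, starts and promoters came from the RefSeq tables. LOR was left out of the keratinocyte list, having no unique match.

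The members, the 8 gene lists and the rules were chosen with earlier results of these data known. Any histone gene could be named; values in full were given for the genes of highest fold in each list and for pairs past 1.5 times from the median ratio, and of the regulators for NPAT, CASP8AP2, SLBP, LSM11, HINFP and POU2F1 and for genes with a peak in 1 list only. Shares carry Wilson intervals, which treat genes or peaks as independent. Medians carry order-statistic intervals. Alternatives changed the distance, the q threshold, the list length, the overlap and the measure of the ratio. Scripts ran in Python 3.11 with numpy 2.4.6, pandas 2.3.3, scipy 1.17.1, numba 0.67.0 and matplotlib 3.10.9.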

Additional observations from a re-analysis of the deposited data

How the results depend on the processing

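Of 51 recomputed values 43 moved by less than their 95% interval or by less than 1.5 times as counts, and 8 moved further. The count of histone genes with a peak in both lists ran from 42 to 54 over the distances (0, 1000 and 10000 bp), q thresholds and list lengths. The count with a knockdown peak only, 0 as reported, was 1 within 1000 bp (H2BC17), 1 at a −log10 q of at least 10 and 1 with equal numbers of strongest peaks (both H2BC18). The count with a control peak only was 1 at a −log10 q of at least 5 and 1 at 10 (H4C4). Within 1000 bp, 85.7% of control peaks were overlapped by a knockdown peak and the covered length ratio was 0.889; with equal numbers of peaks that ratio was 0.812. The cause of these moves was not tested, and each single gene was one with a weak peak.

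The median ratio of summit reads ran from 0.643 (the authors' folds) to 0.716 in 15 pairs in which each peak overlapped a single peak of the other list, an alternative chosen after seeing the data; all pairs of that kind had 0.806. No paired analysis was possible because each group held 1 ChIP library. At the weaker H2AC6 pair, with 19 control reads, the interval of the ratio ran from 0.249 to 1.28, so moderate differences were not detectable at such depth.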
